A study of Mus musculus with 9 samples.

Results

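The open chromatin of 10 genes of DNA double-strand break repair was described in mouse LSK cells, the lineage-negative, Sca-1-positive and Kit-positive compartment that holds blood stem cells and early progenitors. The genes were Xrcc5, Xrcc6, Prkdc, Xrcc4, Lig4 and Nhej1, which carry out classical non-homologous end joining, and Trp53bp1, Rif1, Shld1 and Shld2 of the 53BP1 and shieldin pathway. A peak was assigned to a gene when its summit lay inside the gene's span on GRCm38, or within 50 kb of it with that gene as the nearest protein-coding one. Peaks of the 9 libraries that overlapped by at least 1 bp were merged into 76253 regions, of which 35 belonged to the 10 genes. Xrcc4 and Shld1 were chosen by measured values, the presence and rank of a region inside each in WT and its loss in mutants, so those losses are given as a description with no test. The other 8 genes were added for their function. The farthest region counted lay 43.6 kb from Shld1, with folds of 4.35 to 5.61 over 2 libraries, and no peak beyond the 50 kb limit had 1 of the 10 as its nearest gene.

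Classical end joining rejoins broken DNA ends without a template. The Ku heterodimer, encoded by Xrcc5 and Xrcc6, binds the ends and recruits the DNA-dependent protein kinase encoded by Prkdc, and the ligase Lig4 with its partners Xrcc4 and Nhej1 (XLF) seals the break. 53BP1, encoded by Trp53bp1, binds chromatin beside a break and acts through Rif1 and the shieldin subunits Shld1 and Shld2 to protect the ends from resection, which favours end joining over homologous recombination. In blood stem cells, end joining is known as a main route of break repair during quiescence, and its loss is known to impair stem cell function and lymphocyte development.

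Open DNA was mapped by ATAC-seq, an assay that tags accessible sites with the Tn5 transposase, from 50000 LSK cells per library. There were 2 libraries each of WT, of Bcat_KO, which lacks β-catenin, of HOXA9_KO and of PRMT1_KO, named for the gene lost, and 1 library of dKO, which lacks both β-catenin and Hoxa9. The titles of the mutants say KO while their genotype tags say knockdown. The labels name neither the promoter nor the Cre that produced a loss, nor the age or strain of the mice, and the design text mentions transplanted mice only for Prmt1. The labels do not tie the 2 libraries of a group to separate mice. The p-values therefore measure only the spread between these samples, which may be technical. In bulk samples, fewer cells with an open site and less opening per cell cannot be told apart.

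The lists of the 8 paired libraries held 28325 to 45460 peaks, and the dKO list held 10639. WT had the shortest lists of the 8, of 35581 and 28325. The background recovered from the peak statistics ran from 6.29 to 11.2 reads per kb in the 8 libraries and was 2.41 in the dKO. It was lower in both WT libraries than in any of the 6 single-mutant libraries. The part of depth in the differences below cannot be told apart from genotype in lists called one library at a time. Peaks in the male-specific part of chromosome Y numbered 0 in both WT libraries and 12 to 16 in the 6 single-mutant libraries, so sex and genotype cannot be told apart either. Of 10 stem and progenitor markers, 6 to 9 had a peak at the gene start in each of the 8 libraries, Kit in all 8, whereas Ly6a, which encodes Sca-1, had none in any. In the dKO, 2 of the 10 had one. Single genes of other lineages also had start peaks, with 1 of 4 B-lineage markers (Ebf1) in all 8 libraries, 0 to 1 of 4 T-lineage markers and 0 to 1 of 4 myeloid markers.

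The promoters of Xrcc4, Lig4 and Shld1 are shown because they carry the strongest and the weakest start regions: Xrcc4, whose start was the most open of the 10, Lig4 at its second annotated start, which had the largest difference between a mutant and WT among the tested starts, and Shld1, whose start was the least open. Each runs from 250 bases before the start to 50 bases after it, 5′ to 3′ on the strand of the gene, from RefSeq on GRCm38.p6. They are Xrcc4 at chr13:90089559-90089858 (minus strand), Lig4 at chr8:9976262-9976561 (minus strand) and Shld1 at chr2:132686681-132686980 (plus strand). The Lig4 window lies inside the Lig4 span, since its second start is downstream of the first. Capitals mark matches to GGGCGG, the core of KLF and SP sites, on either strand in Xrcc4 and Lig4, and to GGAAGT, the core of ETS sites, on either strand in Shld1.
Xrcc4: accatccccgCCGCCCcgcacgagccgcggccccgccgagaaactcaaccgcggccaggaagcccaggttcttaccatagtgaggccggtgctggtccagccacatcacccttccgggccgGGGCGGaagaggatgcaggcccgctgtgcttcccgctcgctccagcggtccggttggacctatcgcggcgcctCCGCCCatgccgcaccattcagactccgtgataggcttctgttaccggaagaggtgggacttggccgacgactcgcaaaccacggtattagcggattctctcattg
Lig4: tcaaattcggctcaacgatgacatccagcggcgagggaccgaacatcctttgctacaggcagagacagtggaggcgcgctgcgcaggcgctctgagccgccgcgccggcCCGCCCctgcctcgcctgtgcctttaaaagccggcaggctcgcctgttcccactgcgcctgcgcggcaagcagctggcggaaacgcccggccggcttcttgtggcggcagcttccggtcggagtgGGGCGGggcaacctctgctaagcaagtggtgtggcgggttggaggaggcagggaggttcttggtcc
Shld1: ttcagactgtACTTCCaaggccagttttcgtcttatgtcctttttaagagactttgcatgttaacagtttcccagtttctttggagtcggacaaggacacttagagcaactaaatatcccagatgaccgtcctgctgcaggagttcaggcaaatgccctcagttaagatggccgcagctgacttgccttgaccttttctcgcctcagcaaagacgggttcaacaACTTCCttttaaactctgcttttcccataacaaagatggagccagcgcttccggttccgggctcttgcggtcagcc

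The Xrcc4 promoter held 3 matches to GGGCGG and the Lig4 promoter 2, and neither held any of the other motifs searched. The Shld1 promoter held 2 matches to GGAAGT and no GGGCGG. At least 1 GGGCGG occurs in 35.7% of the 32851 mouse promoters of the same length, and at least 1 GGAAGT in 23.8%. The GC content was 65.7% for Xrcc4, 67.3% for Lig4 and 48.3% for Shld1, against a median of 52.7% over all promoters. CpG dinucleotides numbered 31, 29 and 10 in the same order, against a median of 7. In all, 8 of the 10 genes matched the promoter table, with 11 promoters. Prkdc and Rif1 did not. None of the 11 held the HOX/PBX letters TGATTNAT, the LEF/TCF letters CTTTGA, the RUNX letters TGTGGT or the AP-1 letters TGANTCA on either strand, which occur in 3.22%, 16.0%, 16.8% and 7.81% of all promoters. The absence says only that these letters are not in these windows.

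All 10 genes had a peak with its summit within 1 kb of an annotated start in each of the 8 paired libraries. Of 21887 protein-coding genes, 10743 (49.1%) did. The values below are the authors' fold enrichment, the reads at the summit over the local background of the same library, with 1 added to both. The added 1 lowers the fold most where the background is low, as in the dKO. At the Xrcc5 start, 41 reads over 2.61 gave 11.6 in WT replicate 1. In the dKO, 8 reads over 0.456 gave 6.16. The folds were not normalized between libraries, and both WT libraries had a lower background than any single-mutant library. The share of all regions at which mutant libraries lay above WT on this scale was not counted. Such placings below are therefore not read as particular to these genes. The Xrcc4 start region had the highest median fold of the 10 over the 8 libraries, at 20.4, and the Shld1 start region the lowest, at 8.30.

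**Figure D1:**
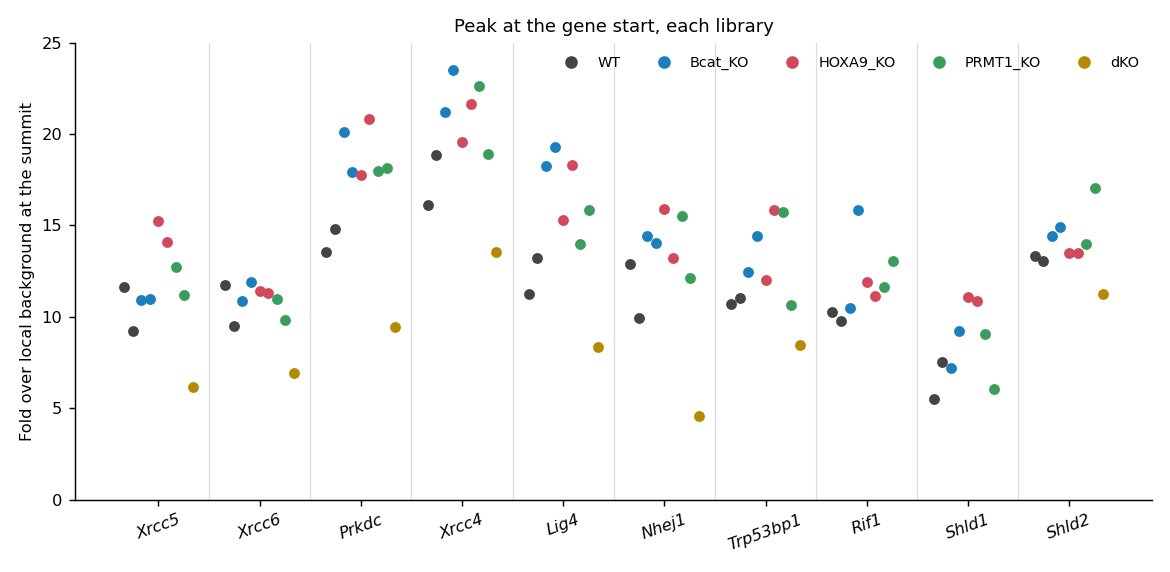
Fold enrichment over local background (vertical axis, linear from 0) at the strongest region of each gene's start, with each point 1 library, coloured by group. Xrcc4 sits highest, with a median of 20.4 over the 8 paired libraries, Shld1 lowest at 8.30, and the single dKO library has no point for Rif1 or Shld1.

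Among the Ku subunits, the Xrcc5 start (chromosome 1, 72306810 to 72307815) had folds of 11.6 and 9.20 in WT, against 10.9 and 10.98 for Bcat_KO, 15.2 and 14.1 for HOXA9_KO, 12.7 and 11.2 for PRMT1_KO, and 6.16 in the dKO. Both HOXA9_KO libraries were above the other 6. The Xrcc6 start (chromosome 15, 82015851 to 82016847), which also holds the start of Desi1, had 11.7 and 9.48 in WT, against 10.8 and 11.9 for Bcat_KO, 11.4 and 11.3 for HOXA9_KO, 10.9 and 9.85 for PRMT1_KO, and 6.91 in the dKO. All mutant groups overlapped the WT range in Xrcc6. The start of Prkdc (chromosome 16, 15636853 to 15638080), the gene of the kinase that Ku recruits, lay beside an end of the span of Mcm4, a replicative helicase gene. It had 13.6 and 14.8 in WT, against 20.1 and 17.9 for Bcat_KO, 17.7 and 20.8 for HOXA9_KO, 18.0 and 18.2 for PRMT1_KO, and 9.45 in the dKO. Each of the 6 single-mutant libraries exceeded both WT libraries at Prkdc on this unnormalized scale.

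In the ligation complex, the Xrcc4 start region (chromosome 13, 90089069 to 90090131) spanned the starts of Xrcc4 and Tmem167, and its summit was nearer to Tmem167, so the rule did not count it for Xrcc4. Its folds were 16.1 and 18.9 in WT, against 21.2 and 23.5 for Bcat_KO, 19.6 and 21.7 for HOXA9_KO, 22.6 and 18.9 for PRMT1_KO, and 13.6 in the dKO. The start of Xrcc4 was thus open in all 9 libraries, including both HOXA9_KO libraries. Lig4 was open at its second RefSeq start (chromosome 8, 9976081 to 9976653) with 11.2 and 13.2 in WT, against 18.2 and 19.3 for Bcat_KO, 15.3 and 18.3 for HOXA9_KO, 13.98 and 15.8 for PRMT1_KO, and 8.37 in the dKO. No mutant library overlapped WT at Lig4 before normalization. A weaker region at the first start, shared with Abhd13, ran from 4.56 to 7.998 over the 8 libraries. For Nhej1 (chromosome 1, 75124551 to 75125461), which stabilizes the ligase complex, the folds were 12.9 and 9.95 in WT, against 14.4 and 14.05 for Bcat_KO, 15.9 and 13.2 for HOXA9_KO, 15.5 and 12.1 for PRMT1_KO, and 4.56 in the dKO. Bcat_KO and HOXA9_KO lay above WT at Nhej1, and PRMT1_KO overlapped it.

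On the side of end protection, the Trp53bp1 start (chromosome 2, 121270949 to 121271755) had 10.7 and 11.02 in WT, against 12.4 and 14.4 for Bcat_KO, 12.0 and 15.8 for HOXA9_KO, 15.8 and 10.6 for PRMT1_KO, and 8.47 in the dKO. Bcat_KO and HOXA9_KO lay above WT there too, and the PRMT1_KO libraries fell on either side of it. A further region of Trp53bp1 (121289120 to 121289908), at the start of Map1a within the Trp53bp1 span, ran from 8.23 to 11.7 over the 8 libraries. Rif1 (chromosome 2, 52072444 to 52073402), which 53BP1 recruits, had 10.2 and 9.77 in WT, against 10.5 and 15.9 for Bcat_KO, 11.9 and 11.1 for HOXA9_KO and 11.7 and 13.0 for PRMT1_KO, with no peak in the dKO. All 6 single-mutant libraries were above both WT libraries at Rif1, Bcat_KO replicate 1 by the least. The Shld2 start (chromosome 14, 34310121 to 34311478), shared with Glud1, had 13.3 and 13.0 in WT, against 14.4 and 14.9 for Bcat_KO, 13.5 and 13.5 for HOXA9_KO, 13.98 and 17.1 for PRMT1_KO, and 11.2 in the dKO. The mutants were above WT at Shld2 on this unnormalized scale, HOXA9_KO only just, and below it after normalization between libraries. The Shld1 start (chromosome 2, 132686809 to 132687260) was weaker, with 5.50 and 7.55 in WT, against 7.17 and 9.22 for Bcat_KO, 11.1 and 10.9 for HOXA9_KO, 9.05 and 6.04 for PRMT1_KO, and no peak in the dKO. Both HOXA9_KO libraries lay above the other 6 at the Shld1 start.

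The strongest start region of 4 of the 10 genes (Xrcc4, Xrcc6, Prkdc and Shld2) also held an annotated start, or for Mcm4 a span end, of another protein-coding gene. The same held for 2015 of the 10743 genes with a start peak in all 8 libraries (18.8%). Accessibility at such a region cannot be assigned to either gene alone.

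To compare the starts at equal scale, the log2 folds of the 19172 regions with a peak in all 8 paired libraries were quantile-normalized and fitted with limma, each mutant against WT, with Benjamini-Hochberg adjustment over all 19172. The threshold of 0.05 was passed by 271 regions in Bcat_KO (1.41%), 521 in HOXA9_KO (2.72%) and 119 in PRMT1_KO (0.621%). Of the regions of the 8 genes not picked for a loss, 9 were in the fit and 0 of them passed in any mutant. The lowest adjusted p was 0.136. Their 27 differences ran from -0.31 to 0.37 on the log2 scale, and the 95% bounds of the single differences reached from -0.66 to 0.63. These are the outermost bounds of 27 separate intervals, and each difference is limited by its own interval only. The SE was 0.112 at Prkdc and 0.192 at the further region of Trp53bp1, so the resolution differed between regions. With 2 libraries a group, values inside a difference's own interval could not be told apart. The largest difference was at Lig4 in Bcat_KO, 0.37 ± 0.124 (SE), with an adjusted limma p of 0.136. It was the 1 of the 27 with an unadjusted limma p below 0.05, at 0.00565, while 14.9% of all 19172 regions were below 0.05 in that contrast. Both Bcat_KO libraries exceeded both WT libraries at Lig4.

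The other tested genes differed by less. Prkdc, above WT in all 6 mutant libraries before it, differed by 0.17 ± 0.112 in Bcat_KO, 0.19 ± 0.112 in HOXA9_KO and 0.10 ± 0.112 in PRMT1_KO (log2 ± SE). Xrcc5 differed by 0.23 ± 0.160 in HOXA9_KO and by -0.19 ± 0.160 in Bcat_KO. The lowest difference was at Xrcc6 in PRMT1_KO, -0.31 ± 0.167, with an adjusted limma p of 0.426. Shld2 was lower in all 3 mutants on this scale, with differences of -0.09, -0.23 and -0.05 (SE 0.134) in Bcat_KO, HOXA9_KO and PRMT1_KO, with an adjusted limma p of 0.408 for HOXA9_KO, the opposite direction to its unnormalized folds. The Rif1 difference in HOXA9_KO, -0.07 ± 0.170, also had the opposite sign to its unnormalized folds. So did every other negative difference of the 10 genes by mean fold, except Xrcc6 in PRMT1_KO. Xrcc5 in Bcat_KO had a mean fold of 10.95, against 10.4 in WT, and Xrcc6 in HOXA9_KO one of 11.3, against 10.6 in WT. For the genes picked for a loss, the start differences are given with no p. The Xrcc4 start differed by 0.11, 0.02 and 0.03 (SE 0.103) in Bcat_KO, HOXA9_KO and PRMT1_KO. The Shld1 start differed by 0.07, 0.50 and -0.08 (SE 0.233) in the same order, and 0.50 in HOXA9_KO was the largest difference of the 10 starts. The median over the 10 gene regions in the fit that the rule counted was 0.06, 0.08 and -0.01 in Bcat_KO, HOXA9_KO and PRMT1_KO, against -0.01 in each over all regions.

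**Figure D2:**
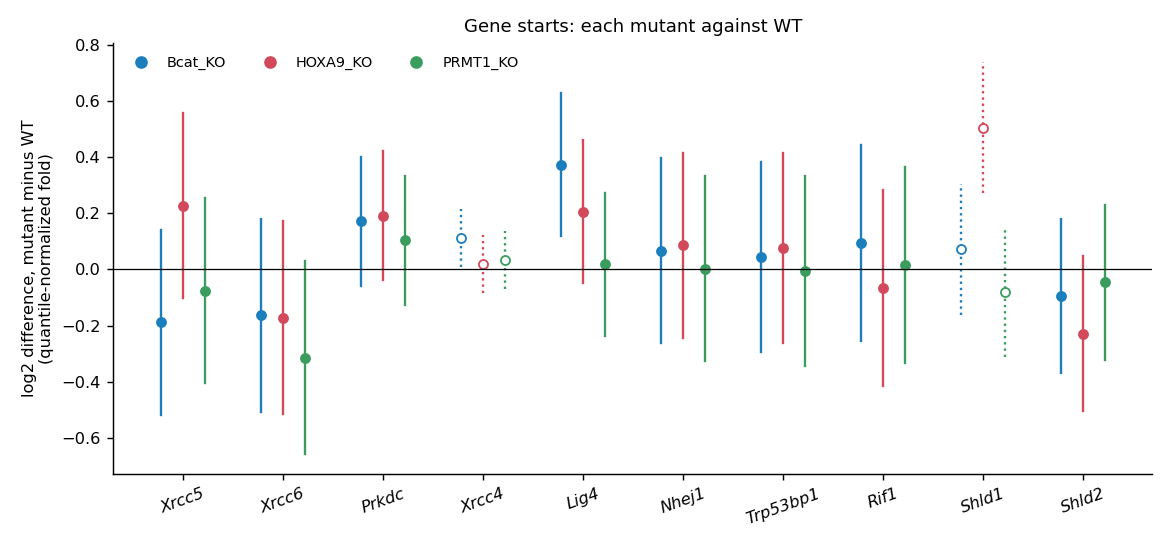
Log2 difference in quantile-normalized fold, mutant minus WT (vertical axis), at the strongest start region of each gene, coloured by mutant. Filled points with solid lines are tested genes with 95% intervals, and open points with dotted lines are Xrcc4 and Shld1 with 1 SE and no test. Lig4 in Bcat_KO (0.37) is the highest tested point, and Xrcc6 in PRMT1_KO (-0.31) the lowest.

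Away from the starts, presence and rank were compared with each of the 8 lists shortened to its strongest 28325 peaks, as many as WT replicate 2 has. The call closed was given where both WT libraries held the region among their 14162 strongest peaks and neither shortened mutant list held it, and the call opened in the reverse case. Of the 35 regions, 23 were in at least 1 shortened list and 11 were among the strongest in both WT lists. In each mutant 1 of the 23 was closed and 0 were opened. The background over the 46847 regions in any shortened list was 0.0832% closed in Bcat_KO, 0.16% in HOXA9_KO and 0.0704% in PRMT1_KO. For opened it was 0.269%, 0.446% and 0.188%. Of the regions among the strongest in both libraries of the open side, the closed share was 0.328%, 0.632% and 0.278%, and the opened share 1.05%, 1.72% and 0.718%, in the same order. The closed regions were the ones for which Xrcc4 and Shld1 were picked, so nothing is read from these counts. With 2 libraries against 2, no exact test can give a p below 0.333.

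The closed region of Xrcc4 (chromosome 13, 89888958 to 89889577) lay inside the gene, 200 kb downstream of its start and far from its promoter. Whether it is exonic or intronic was not determined here, since only gene spans were used. Its folds were 15.3 and 13.1 in WT, 10.8 and 9.84 in Bcat_KO and 12.7 and 17.1 in PRMT1_KO. In HOXA9_KO, replicate 1 had no peak and replicate 2 had a fold of 3.19 from 6 reads, at rank 40720 of its list. The dKO list had no peak there. The reads at the summit were 44 and 26 in WT, 24 and 21 in Bcat_KO and 42 and 55 in PRMT1_KO. The 6 libraries outside HOXA9_KO and the dKO did not overlap with HOXA9_KO replicate 2 in reads or fold. The lowest number of reads at any called summit was 6 in WT, Bcat_KO and HOXA9_KO and 7 in PRMT1_KO, so a missing peak does not mean that no reads were there. With the lists as deposited the region was not closed, because its 6-read peak in HOXA9_KO replicate 2 then counts as present.

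The closed region of Shld1 (chromosome 2, 132695641 to 132696189) lay inside the gene, 9.02 kb downstream of its start. Its folds were 8.01 and 7.85 in WT, 4.59 and 4.47 in Bcat_KO and 4.77 and 5.46 in HOXA9_KO, and PRMT1_KO and the dKO had no peak. The reads were 20 and 18 in WT, 10 and 9 in Bcat_KO and 10 and 11 in HOXA9_KO. The Bcat_KO and HOXA9_KO libraries were thus below both WT libraries, and the libraries without a peak have no value to compare. The call in Bcat_KO rests on ranks of 32515 and 36292, beyond the limit of 28325, and the region was not closed there with the lists as deposited. HOXA9_KO, with ranks of 30293 and 27613, fell on both sides of the limit and was not called. Whether the loss in PRMT1_KO differs from the lower folds of the other mutants was not tested. With peaks limited to a -log10 q of at least 5, or with a stricter limit on the strongest peaks, Shld1 was closed in neither Bcat_KO nor PRMT1_KO. Over all regions the q limit closed 20 in Bcat_KO and 10 in PRMT1_KO, and the stricter limit 0 in either.

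**Figure D3:**
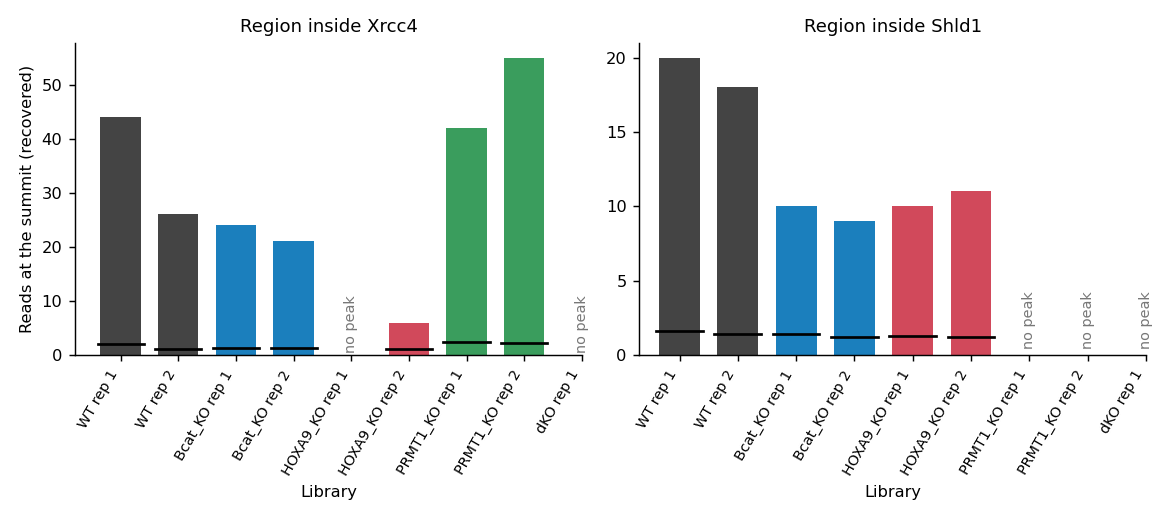
Reads at the summit, recovered from the fold and p of each peak (vertical axes from 0, a different scale in each panel), in every library for the closed regions of Xrcc4 and Shld1, with black lines for the local background. Xrcc4 shows 6 reads and no peak in HOXA9_KO against 26 and 44 in WT, and Shld1 shows no peak in PRMT1_KO against 18 and 20 in WT.

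Other regions of Xrcc4 had higher folds in HOXA9_KO than in WT. A region 79.6 kb inside the gene (90009752 to 90010164) had 5.53 and no peak in WT, against 6.48 and 12.9 for Bcat_KO, 11.7 and 11.7 for HOXA9_KO and 5.38 and 7.002 for PRMT1_KO. A region at 160 kb (89929443 to 89929788) had no peak in WT, 8.05 in Bcat_KO replicate 2, 7.50 and 12.4 in HOXA9_KO and 4.22 in PRMT1_KO replicate 1. Neither was called opened at equal list length. The former was called opened when WT replicate 1 was left out or with a -log10 q of at least 5, and the latter when HOXA9_KO replicate 1 was left out or with the lists as deposited. Over all regions, these settings opened 469, 100, 484 and 695 in HOXA9_KO, in the order given, against 209 at equal list length. The highest fold at the region 79.6 kb inside the gene, 12.9, was in Bcat_KO replicate 2. Both HOXA9_KO libraries thus had peaks at these 2 regions and at the Xrcc4 start, with no peak or a 6-read peak at the closed one.

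**Figure D4:**
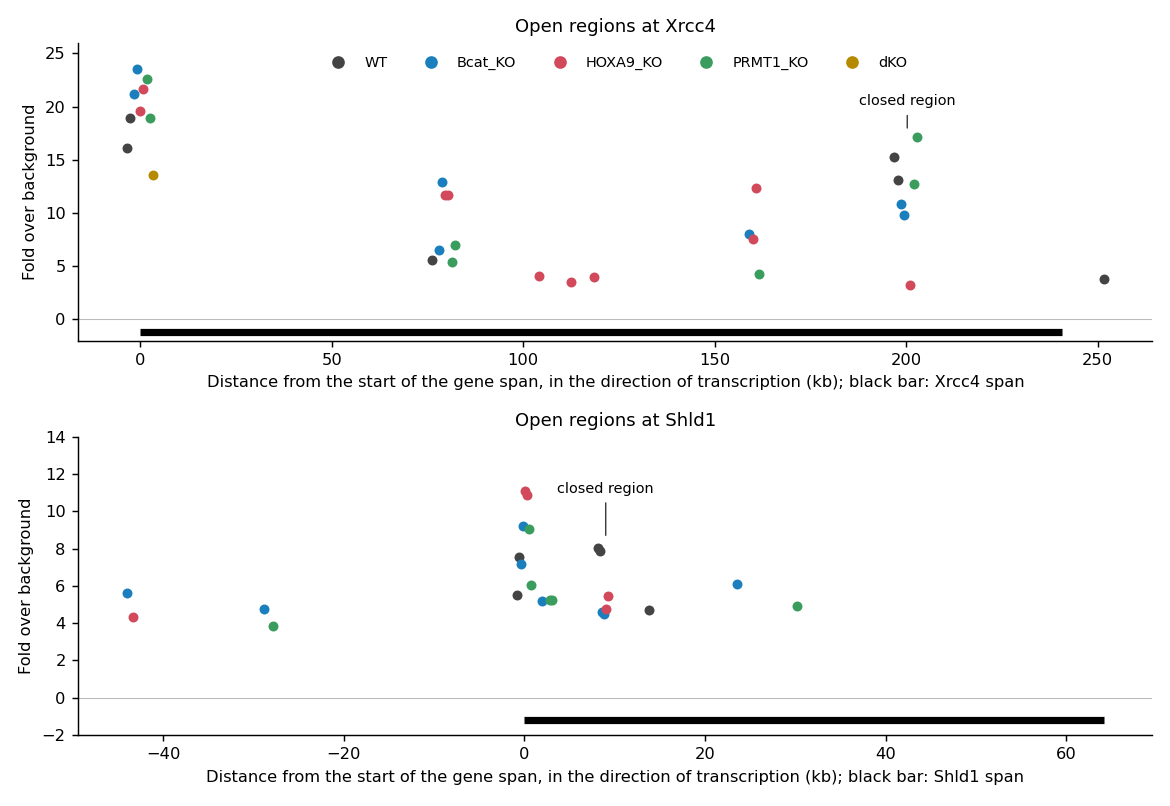
Fold over background (vertical axis) of every region at Xrcc4 and Shld1 by distance from the start of the gene span in the direction of transcription (kb), each point 1 library and nudged sideways so that points do not overlap; the black bar is the gene span. The closed regions, at 200 kb in Xrcc4 and 9.02 kb in Shld1, lack a point for HOXA9_KO replicate 1 and for both PRMT1_KO libraries, respectively.

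The patterns of the 2 closed regions over the 8 libraries were compared with those of other autosomal regions within 50 kb of a protein-coding gene, by Pearson's r of the rank percentile in the shortened lists with no peak set to 0. For Xrcc4 the most similar were regions nearest to 4930523C07Rik (r = 0.987), Apbb1ip (0.987) and Sod1, the superoxide dismutase gene (0.986). Of these only the Apbb1ip region, with 9.09 and 9.35 in WT, had no peak in HOXA9_KO. The 4930523C07Rik region had 5.03 and 5.14 there, against 10.5 and 10.8 in WT, and the Sod1 region 8.94 and 10.4, against 11.8 and 12.4. For Shld1 they were nearest to Olfr763, Cfap61 and Id1, each with r = 1.00 after rounding. Nearly all mutant values are 0 in that measure, so these r are set by the WT values for which Shld1 was picked. Unlike the Shld1 region, all 3 had a peak in 1 PRMT1_KO library and none in HOXA9_KO. Points share their library and depth, and the correlations are a description over 8 libraries.

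The remaining regions were mostly weak and irregular. Of the 35, 10 had a peak in all 8 paired libraries (28.6%, against 25.1% of all regions), 7 in 4 to 7 and 18 in 1 to 3. The 11 found in 1 library only (31.4%, against 31.9%) had folds of 3.53 to 6.12. Among the 35, 17 were found in mutant libraries alone (48.6%, against 47.0% of all regions) and 2 in WT alone (5.71%, against 5.37%), with 6 mutant libraries set against 2 of WT. Shld2 had a region 1753 bp past its far end (34235055 to 34235404) with no peak in WT replicate 1, 8.37 in WT replicate 2 and 7.30 to 11.8 in the 6 single-mutant libraries. Xrcc6 had 2 regions inside the gene, at 82022505 and 82027741, seen in 5 mutant libraries each and in no WT library, with folds of 3.07 to 6.48. Their peaks rested on 7 to 14 reads. The ranks ran from 21133 to 44072, in part beyond the 28325 peaks of the shortest WT list. The share of all regions with this pattern was not counted, so nothing is read from it. Prkdc, Lig4 and Rif1 had no region other than the start under the rule.

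**Figure D5:**
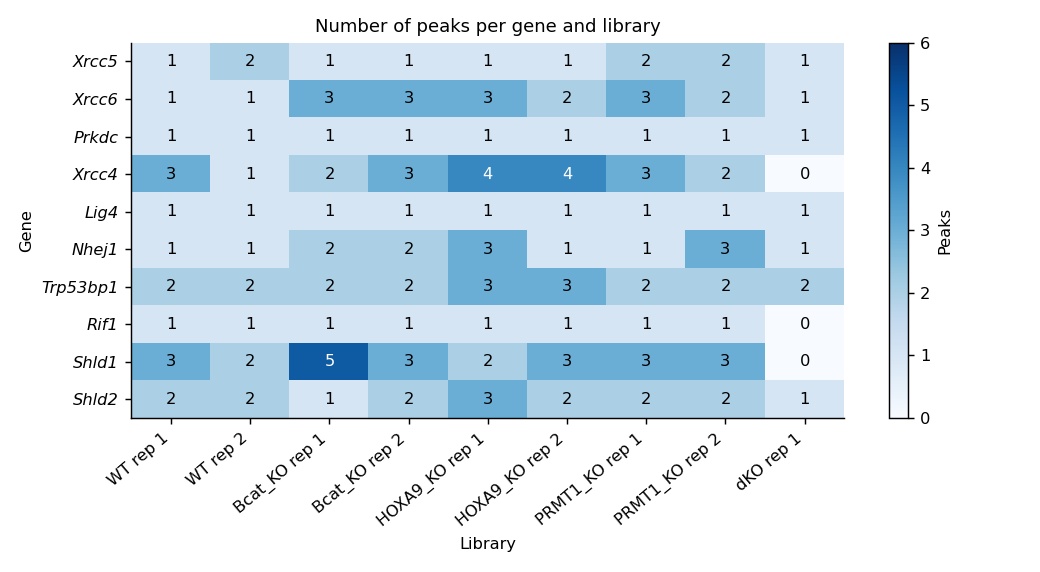
Number of peaks assigned to each gene (rows) in each library (columns), with the count printed in the cell and shown by colour. The totals run from 14 in WT replicate 2 to 22 in HOXA9_KO replicate 1, with Shld1 and Xrcc4 varying most, and the dKO has 8.

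Per library, the 10 genes had 16 and 14 peaks in WT, against 19 and 19 for Bcat_KO, 22 and 19 for HOXA9_KO, 19 and 19 for PRMT1_KO, and 8 in the dKO. As a share of the list this was 0.0418% to 0.0552% in the 8 libraries, and the WT libraries, at 0.0450% and 0.0494%, lay within the range of the mutants. The lower counts of WT thus went with its shorter lists.

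In the dKO, 8 of the 10 genes had a start peak, all but Rif1 and Shld1, against 6515 of the 10743 genes with a start peak in all 8 libraries (60.6%, 95% Wilson interval 59.7% to 61.6%, counting error only). That share was not matched for strength. Over all regions, the share with a dKO peak rose from 28.5% at a mean WT fold of 5 to 10 to 96.0% at 15 to 20. Nothing particular to the 10 genes is read from 8 of 10. At the intragenic regions of Xrcc4 and Shld1 the dKO had no peak. Of all regions with a mean WT fold of 10 to 15, where the Xrcc4 region lies, 3546 of 4654 (76.2%) had a dKO peak, and of those at 5 to 10, where the Shld1 region lies, 28.5% did. With 1 shallow library, a missing dKO peak at Shld1 was the more common outcome at that strength. These shares match fold alone and not reads. In WT the Xrcc4 region had 44 and 26 reads, and the Shld2 start, in the same fold range, had 112 and 85. The missing dKO peak at Xrcc4 is therefore not read as a loss.

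Other genes of the same pathways were read from a list of 27 chosen for function. A start peak in all 8 libraries was found for 26: 8 of 9 core and processing factors, such as Paxx and Dclre1c (Artemis), 14 of 14 genes on the 53BP1 and shieldin side, including Shld3, Mad2l2 (REV7), Rnf168 and Atm, and 4 of 4 of alternative end joining, including Polq. The exception at the starts was Dntt, which encodes the terminal transferase of V(D)J recombination and had no start peak in any of the 8. In the dKO, 15 of the 27 had a start peak. The 27 genes had 69 regions, 54 of them in a shortened list, and 0 were closed and 0 opened in any single mutant, beside backgrounds of 0.0704% to 0.16% closed and 0.188% to 0.446% opened.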

How the data were processed

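ATAC-seq peak lists of 9 libraries of mouse LSK cells were used. Per the submitters' processing notes, the tools were Bowtie2 2.4.2, SAMtools 1.14, Picard 2.27.4 and MACS2 on GRCm38/mm10; their settings are not given in the sources used here. Peak names in the deposited lists carry 1 library each, so peaks were called per library, and those of the dKO follow another naming. Each deposited peak has a fold enrichment at the summit, a ratio to the local background of its own library with 1 added to both. It also has a −log10 p-value, a −log10 q-value, a score made by the authors' caller from the q-value, and a summit offset. All peaks had a −log10 q of at least 1.

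Ranks were by −log10 p. Reads and background at a summit were recovered from fold and p; they came out whole within 0.01 for 100% of the peaks read in the 8 paired libraries and 99.0% in the dKO, and intervals cover counting error only. Log2 folds were quantile-normalized and fitted with limma 3.58.1 in R 4.3.3 with a trended prior, group only, all 4 groups together, without the single dKO library; simulated data with known changes were used to test the fit. Where a start was needed, the starts of the RefSeq promoter table were used (GRCm38.p6), and both ends of the span for genes without one. The 10 genes, the pathway and marker lists, the tests and the alternatives were chosen with earlier results of these data known. All 10 genes and every closed or opened region of theirs are named, with their values; other regions are given by counts and ranges, and those singled out beyond that were chosen after their values were seen. Same-numbered libraries do not pair: over 6 pairs of groups, the correlation of their deviations ran from -0.0043 to 0.0368, with 0 above 0.1. A further marker list was checked and is not reported here.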

Additional observations from a re-analysis of the deposited data

How the results depend on the processing

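The closed or opened counts of the 10 genes depended on how the lists were cut. With the lists as deposited, 0 regions were closed in Bcat_KO, 0 in HOXA9_KO and 1 opened in HOXA9_KO (Xrcc4 at 89929443). Over all regions the counts were 21, 43 and 695 in the same order, against 39, 75 and 209 at equal list length. With a −log10 q of at least 5, 0 were closed in Bcat_KO, 0 in PRMT1_KO and 1 opened in HOXA9_KO (Xrcc4 at 90009752). Over all regions the counts were 20, 10 and 100 in that order. With the strongest peaks narrowed further (the top 1 in 4 of each list), 0 were closed in Bcat_KO and 0 in PRMT1_KO, and Xrcc4 was still closed in HOXA9_KO. Over all regions this setting closed 0 in Bcat_KO, 0 in PRMT1_KO and 1 in HOXA9_KO, the Xrcc4 region itself. The 0 counts of the 10 genes there say nothing about these genes. Leaving out 1 library at a time gave 0 to 1 opened and 1 to 2 closed regions in HOXA9_KO. Over all regions it gave 372 to 484 opened and 146 to 314 closed. Without HOXA9_KO replicate 2 the Shld1 region was added to the closed ones. Regions built from summits, ranking by fold and the gene span alone kept the 3 calls. Regions past the limma threshold over the whole table numbered 651, 1071 and 325 in Bcat_KO, HOXA9_KO and PRMT1_KO with normal scores of the rank, and 180 and 341 in Bcat_KO and HOXA9_KO with the q limit. Leaving out 1 library at a time gave 28 to 199 in Bcat_KO, 58 to 501 in HOXA9_KO and 4 to 132 in PRMT1_KO. The lowest counts came without Bcat_KO replicate 1, HOXA9_KO replicate 2 and PRMT1_KO replicate 2. With the replicate number as a block they were 300, 578 and 135. In each of these fits, 0 regions of the 8 tested genes passed. The Lig4 difference in Bcat_KO ranged from 0.27 to 0.51, with adjusted limma p from 0.0709 to 0.436. Of the 7 start differences computed under alternatives, 0 changed sign. These 7 were picked as the highest or lowest tested start of a contrast, plus Shld1 in HOXA9_KO. Smaller differences were not included. Each alternative put the libraries on a common scale. On unnormalized mean folds, Shld2 in HOXA9_KO (13.5, against 13.2 in WT) and Xrcc5 in Bcat_KO (10.95, against 10.4 in WT) lay above WT, opposite to their normalized differences. Except where a shortened list or a smaller number of libraries or regions is the alternative itself, the cause was not tested. Depth limits the dKO most, and a missing peak there does not show closed chromatin.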
